A study of Mus musculus with 10 samples.

Results

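The T cell receptor and T cell program was followed through 35 genes of T lymphocytes, listed by name with earlier results of these data known. They cover the receptor complex and its coreceptors, the kinases and adaptors that carry its signal, surface receptors, transcription factors and activation molecules. A gene was read through the probe sets annotated to it alone, and the brightest of these on average stood for it. By this rule 33 of the 35 genes had a value, among 18193 genes in all, and Lck and Tcf7 were not analysed here. Each of 10 Affymetrix whole-genome mouse arrays measured RNA of a piece of the distal colon of 1 mouse, with its cell types not separated. All mice were Rag1-/- animals on the C57BL/6 background, which make no T or B cells of their own but keep natural killer, innate lymphoid and myeloid cells. The 6 inflamed mice had been given naïve T cells, and the labels divide them into 3 severely and 3 moderately inflamed. The 4 control mice had been given regulatory T cells (Tregs) and had non-inflamed colons. Both kinds of cells had been sorted from wild-type C57BL/6 donors. Cells were injected at 10 weeks of age and colons were taken 2 to 3 months later, at 4 to 5 months of age. The injected cell type and the inflammation cannot be told apart in this design, since all inflamed mice received naïve T cells and all controls received Tregs.

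The T cell receptor binds peptide on MHC molecules, and the CD3 and zeta chains beside it carry the signal inward. Lck phosphorylates these chains, Zap70 docks on them, and Zap70 in turn phosphorylates the adaptors Lat and SLP-76 (Lcp2), on which the signaling complex assembles. Costimulatory receptors such as Cd28 add to this signal, and factors such as Tbx21, Gata3 and Batf direct helper T cells to their cytokine programs. Naïve CD4+ T cells placed in a mouse without Tregs react to the gut flora, which is the basis of colitis by T-cell transfer (TCT). Several of the 35 genes are also used outside T cells, for example Ikzf1 and Lcp2 in myeloid cells, Cd247 and Tbx21 in natural killer cells and Gata3 in innate lymphoid cells.

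The start regions of 4 of the genes that rose in inflamed colon are shown first. Cd3g and Cd3d, neighbours on opposite strands, had the largest differences of the receptor complex. Lcp2 had the largest among the adaptors. Tbx21 was taken as the regulator of type 1 helper cells, though several other genes rose by more. The bases before each gene's start were taken from RefSeq (mouse build GRCm38.p6) and read along the gene. Capitals mark matches, on either strand, to 4 short words: GGAAGT for Ets factors, TGTGGT for Runx, CTTTGA for Tcf and Lef, and AGATAA for Gata. None of these words is contained in another. The window of Cd3d was ended at the annotated start of the gene and is 233 bases long.
Cd3g, chr9:44980432-44980681, minus strand: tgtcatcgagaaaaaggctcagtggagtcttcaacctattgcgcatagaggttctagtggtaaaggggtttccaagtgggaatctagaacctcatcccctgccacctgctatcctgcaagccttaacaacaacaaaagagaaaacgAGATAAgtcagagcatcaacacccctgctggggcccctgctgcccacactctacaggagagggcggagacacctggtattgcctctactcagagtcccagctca
Cd3d, chr9:44981536-44981768, plus strand: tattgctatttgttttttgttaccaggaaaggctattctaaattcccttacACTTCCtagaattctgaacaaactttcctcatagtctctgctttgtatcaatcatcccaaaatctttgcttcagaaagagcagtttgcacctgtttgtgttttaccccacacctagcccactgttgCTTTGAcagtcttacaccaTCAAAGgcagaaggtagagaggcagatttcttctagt
Lcp2, chr11:34046678-34046927, plus strand: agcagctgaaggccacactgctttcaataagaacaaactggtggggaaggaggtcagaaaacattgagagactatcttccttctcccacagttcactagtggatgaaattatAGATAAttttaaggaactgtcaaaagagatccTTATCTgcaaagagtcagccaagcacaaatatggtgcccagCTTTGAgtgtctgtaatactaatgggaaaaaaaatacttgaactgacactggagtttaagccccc
Tbx21, chr11:97115332-97115581, minus strand: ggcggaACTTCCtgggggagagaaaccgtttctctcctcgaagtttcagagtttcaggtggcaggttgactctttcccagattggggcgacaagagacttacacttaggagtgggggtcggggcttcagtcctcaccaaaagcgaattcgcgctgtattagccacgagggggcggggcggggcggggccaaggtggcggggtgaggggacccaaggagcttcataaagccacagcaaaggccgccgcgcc
Such windows, each with 250 bases before a start, were at hand for 24 of the 35 genes, which have 37 of them. Some genes have more than 1 window, and some windows of Il18r1 and of Lef1 overlap, so the 37 are not independent. The Ets word was in 17 of the 37 windows (45.9%), against 19.7% of all 32817 windows. The Runx word was in 13.5% of the 37 windows, against 14.0% of all. The Tcf and Lef word was in 18.9%, against 13.8% of all. The Gata word was in 10.8%, against 9.99% of all. Among the windows printed above, those of Cd3d and Tbx21 held the Ets word, those of Cd3d and Lcp2 the Tcf and Lef word, and those of Cd3g and Lcp2 the Gata word. A word is a match of letters only, and binding was not measured.

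Transcripts of the T cell program were higher in inflamed colon. Of the 33 genes, 27 rose and 0 fell in the 6 inflamed against the 4 control colons (limma, adjusted over all genes), which is 81.8%. Over all genes tested, 18.5% rose and 21.2% fell. Since the list was made with earlier results of these data known, this contrast describes the genes and is not a test. The differences in log2 value ran from 0.04 for Cd8a to 4.36 for Cd3g, all 33 above 0, with a median of 0.81, against 0.03 over all genes. Rises of at least 1 on the log2 scale, which is a doubling, were seen for 14 of the 33 genes and for 3.5% of all genes. The groups were separate, with the lowest inflamed colon over the highest control, for the 27 members that rose and for 14.6% of all genes. The 6 that did not pass were Cd8a, Zap70, Ubash3a, Cd27, Lef1 and Cd40lg. In bulk tissue, more cells of a type and more RNA per cell cannot be told apart.

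Array medians lay between 5.36 and 5.40 on the log2 scale and lower quartiles between 3.82 and 3.92. Controls lay below their array's lower quartile on every array for 7 of the 33 genes, Cd3g, Sh2d1a, Txk, Ubash3a, Cd27, Stat4 and Cd69, so the size of a difference is uncertain there. Rag1 itself read 4.80 to 5.15 on all 10 arrays, and since every mouse shares the genotype it separates no groups. The epithelial markers, such as Epcam and Krt8, averaged 12.55 to 12.76 in severe, 12.63 to 12.69 in moderate and 12.42 to 12.54 in control colon over 10 genes.

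**Figure D1:**
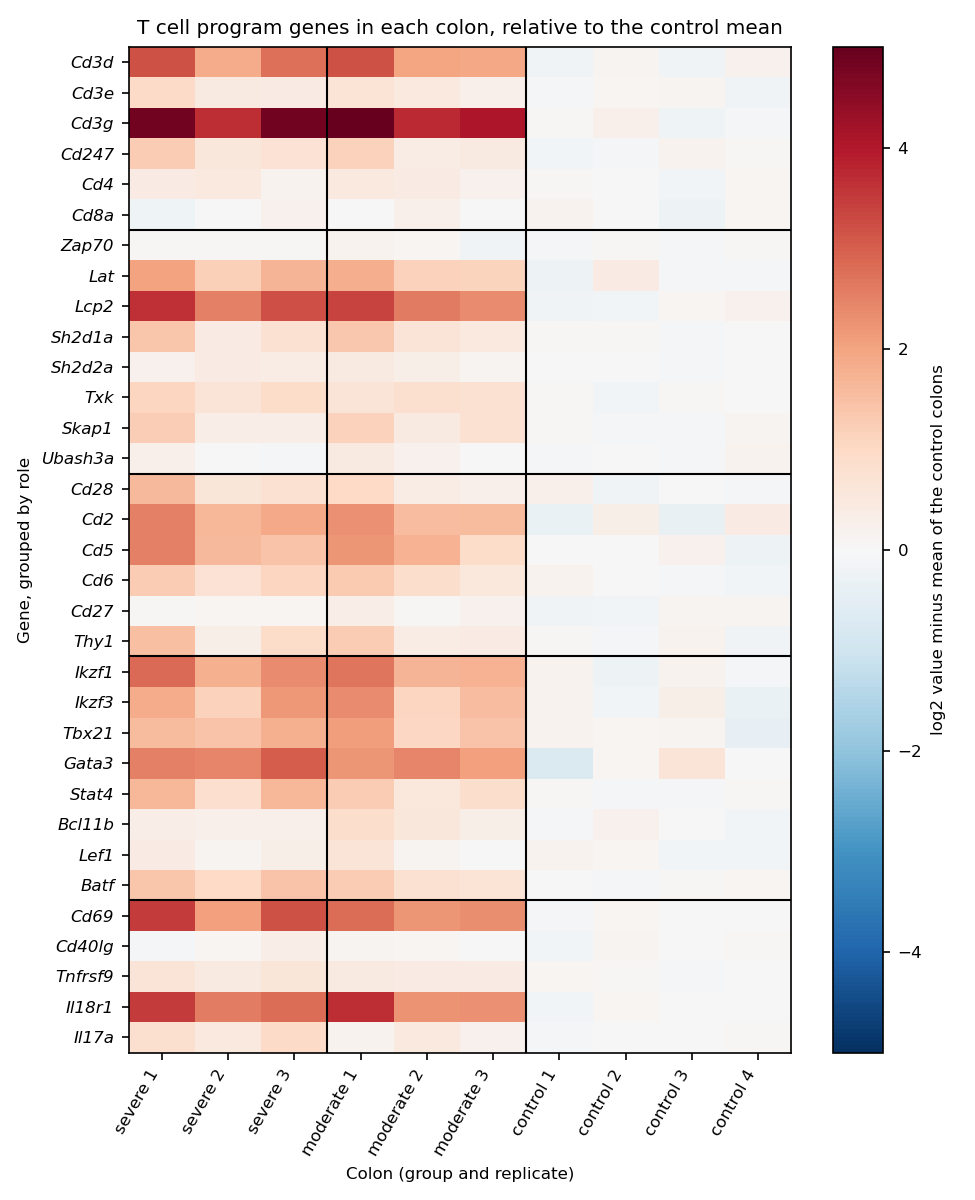
Log2 value of each of the 33 genes in each colon, minus the mean of the 4 control colons, with genes as rows in 5 groups by role and colons as columns. Red is above and blue below the control mean, and the reddest rows, Cd3g, Lcp2, Il18r1 and Cd69, are red in all 6 inflamed colons.

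**Figure D2:**
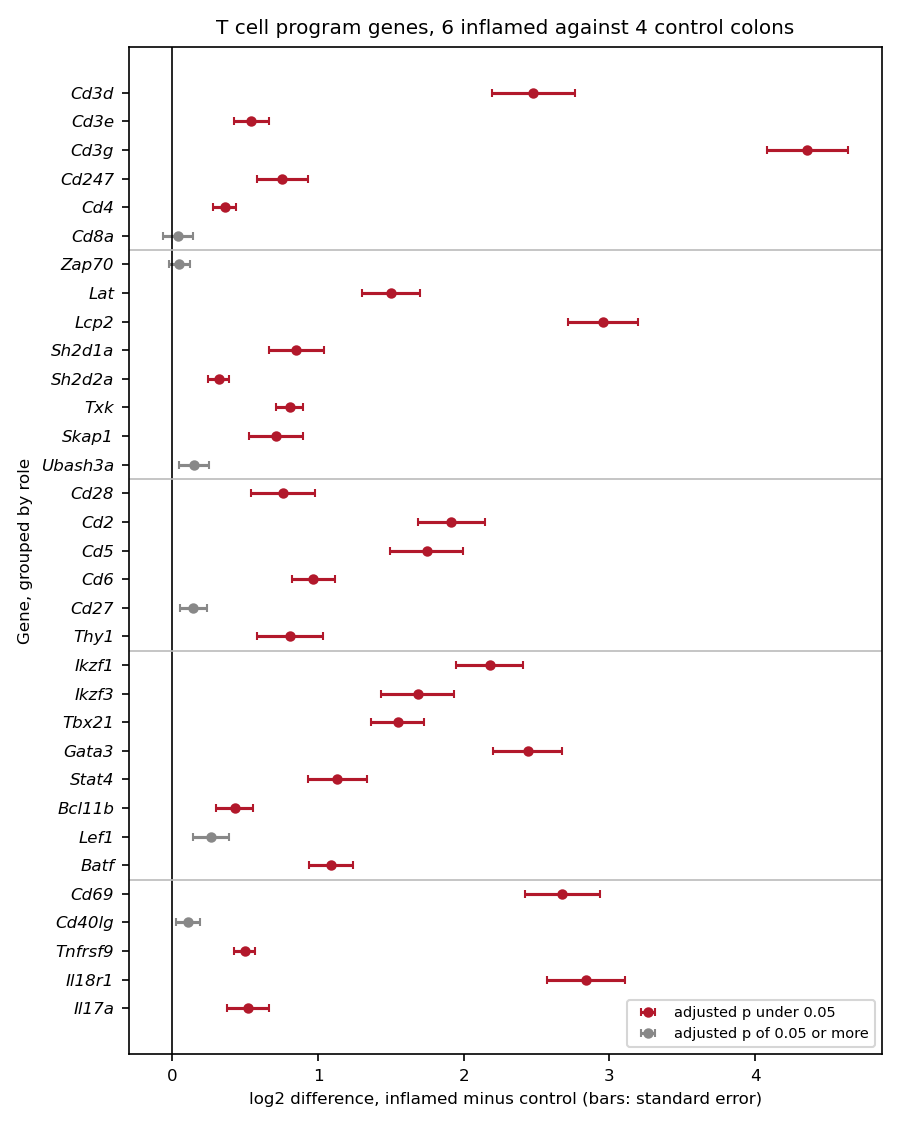
Difference in log2 value between the 6 inflamed and the 4 control colons for each of the 33 genes, grouped by role, with bars for the standard error. The 27 red genes passed at an adjusted p under 0.05 and the 6 grey ones did not, and all points lie above 0.

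Of the 6 genes of the receptor complex and its coreceptors, 5 rose, with a median log2 difference of 0.65 over the 6. Cd3g, the gamma chain of CD3, had log2 values of 8.38, 7.22 and 8.35 in severe, 8.61, 7.27 and 7.59 in moderate and 3.62, 3.81, 3.31 and 3.43 in control colon. No inflamed colon came near a control, and severe replicate 2 and moderate replicate 2 were the lowest inflamed ones. It averaged 7.90 ± 0.62 (SD, n = 6) in inflamed and 3.54 ± 0.22 (SD, n = 4) in control colon, a difference of 4.36 or 20.5-fold (standard error 0.28, limma adjusted p = 1.59e-06), from a control level under the lower quartile. Cd3d, the delta chain, had 8.37, 7.05 and 7.94 in severe, 8.39, 7.17 and 7.11 in moderate and 5.03, 5.33, 5.00 and 5.41 in control colon. Moderate replicate 1 and severe replicate 1 were again the highest colons and severe replicate 2 the lowest inflamed one. Its difference was 2.48 or 5.57-fold (standard error 0.28, adjusted p = 4.40e-05).

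The other chains had smaller differences on these probe sets. Cd3e, the epsilon chain, had 7.14, 6.66 and 6.63 in severe, 6.87, 6.69 and 6.47 in moderate and 6.13, 6.28, 6.35 and 6.04 in control colon. The groups did not overlap, though moderate replicate 3 was only 0.12 above the highest control, and the difference was 0.54 (standard error 0.12, adjusted p = 0.00376). Cd247, the zeta chain, averaged 5.14 ± 0.37 (SD, n = 6) in inflamed and 4.39 ± 0.16 (SD, n = 4) in control colon, a difference of 0.75 (adjusted p = 0.00475), or 0.34 with its 4 probe sets averaged (adjusted p = 0.00257). Cd4, the coreceptor of helper T cells, which human macrophages also carry, had 6.64, 6.73 and 6.44 in severe, 6.72, 6.64 and 6.48 in moderate and 6.33, 6.24, 6.10 and 6.34 in control colon. It rose by 0.36 with no overlap (standard error 0.08, adjusted p = 0.00394). Cd8a, the coreceptor chain of cytotoxic T cells, had 5.44, 5.65 and 5.85 in severe, 5.63, 5.89 and 5.63 in moderate and 5.81, 5.61, 5.40 and 5.75 in control colon. The groups overlapped, with control replicate 1 above 4 of the 6 inflamed colons, and the difference was 0.04 (95% confidence interval -0.19 to 0.27, adjusted p = 0.798).

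Of the kinases and adaptors, 6 of 8 measured genes rose, with a median log2 difference of 0.76. Lcp2, which encodes the adaptor SLP-76, had 8.67, 7.52 and 8.24 in severe, 8.37, 7.59 and 7.38 in moderate and 4.84, 4.85, 5.11 and 5.21 in control colon. All 6 inflamed colons lay over 2 log2 units above the highest control, and the difference was 2.96 or 7.77-fold (standard error 0.24, adjusted p = 6.00e-06). On its other, dimmer probe set it rose by 0.64 (limma over all probe sets, adjusted p = 0.00316), and with both averaged by 1.80. Lat, the membrane adaptor that Zap70 phosphorylates, had 7.97, 7.12 and 7.62 in severe, 7.77, 7.10 and 7.06 in moderate and 5.68, 6.33, 5.90 and 5.85 in control colon. Control replicate 2 was the highest control and still below every inflamed colon, and Lat rose by 1.50 or 2.83-fold (standard error 0.20, adjusted p = 0.000114). Txk, a Tec family kinase of T cells, averaged 4.54 ± 0.17 (SD, n = 6) in inflamed and 3.73 ± 0.10 (SD, n = 4) in control colon and rose by 0.80 (adjusted p = 4.83e-05). Skap1, an adaptor that links the receptor to integrin adhesion, rose by 0.71 (adjusted p = 0.00913), with severe replicate 1 at 5.71 and moderate replicate 1 at 5.63 above the other inflamed colons at 4.79 to 5.23.

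Sh2d1a, the adaptor SAP of the SLAM receptors, averaged 3.56 ± 0.43 (SD, n = 6) in inflamed and 2.70 ± 0.06 (SD, n = 4) in control colon, a difference of 0.85 (adjusted p = 0.00361). Its values lay near the bottom of the range, and with values under each array's lower quartile set to that quartile the difference was 0.11 (adjusted p = 0.178). Sh2d2a, the T cell adaptor TSAd, rose by 0.32 (adjusted p = 0.00430). Ubash3a, a negative regulator of receptor signaling, averaged 3.77 ± 0.19 (SD, n = 6) in inflamed and 3.62 ± 0.11 (SD, n = 4) in control colon and did not pass (0.15, adjusted p = 0.287). Zap70, the kinase that docks on the phosphorylated CD3 and zeta chains, had 8.11, 8.09 and 8.11 in severe, 8.23, 8.16 and 7.89 in moderate and 7.99, 8.09, 7.99 and 8.12 in control colon. The groups overlapped on this probe set, the brightest of 3, and the difference was 0.05 (95% confidence interval -0.11 to 0.21, adjusted p = 0.649), unlike on the other 2, given with the probe sets.

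**Figure D3:**
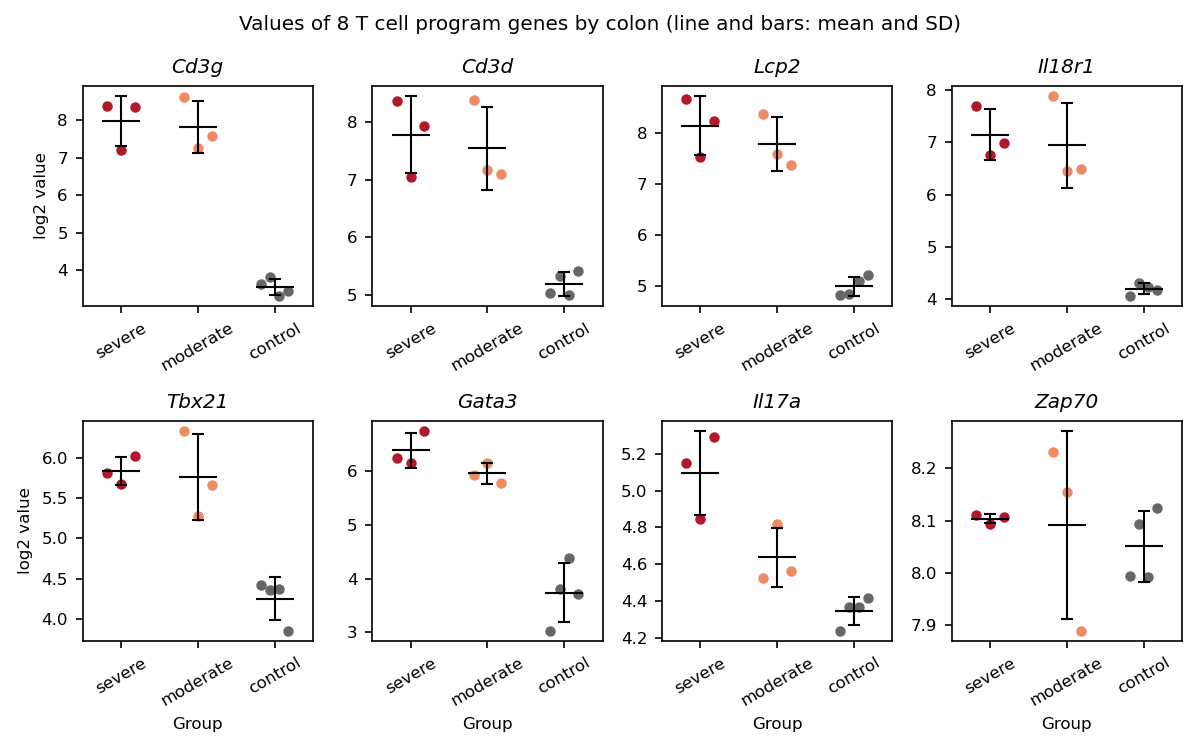
Log2 values of 8 genes in each colon, with severe, moderate and control colons from left to right, a point per colon, a line at the group mean and bars of 1 SD; each panel has its own scale. Cd3g, Cd3d, Lcp2, Il18r1, Tbx21 and Gata3 lie far above the controls in both inflamed groups, Il17a is highest in the severe colons, and Zap70 overlaps between groups.

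Of the 6 surface receptors, 5 rose, with a median log2 difference of 0.89. Cd2, an adhesion receptor of T and natural killer cells, had 6.67, 5.78 and 6.02 in severe, 6.44, 5.68 and 5.72 in moderate and 3.79, 4.43, 3.77 and 4.56 in control colon. It rose by 1.91 or 3.77-fold without overlap (standard error 0.23, adjusted p = 5.65e-05), although its controls were spread, with control replicates 2 and 4 above the other two. Cd5, which dampens receptor signaling, had 6.53, 5.65 and 5.45 in severe, 6.22, 5.77 and 4.95 in moderate and 4.05, 4.02, 4.21 and 3.78 in control colon. Severe replicate 1 and moderate replicate 1 again stood highest, and Cd5 rose by 1.75 or 3.36-fold (standard error 0.25, adjusted p = 0.000203). Cd6, a relative of Cd5, averaged 6.49 ± 0.31 (SD, n = 6) in inflamed and 5.53 ± 0.14 (SD, n = 4) in control colon, a difference of 0.97 (adjusted p = 0.000292).

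Cd28, the main costimulatory receptor, had 5.24, 4.23 and 4.38 in severe, 4.62, 4.00 and 3.91 in moderate and 3.88, 3.48, 3.61 and 3.59 in control colon. Severe replicate 1 stood above the rest, and moderate replicate 3 was only 0.03 above control replicate 1. The difference was 0.76 (standard error 0.22, adjusted p = 0.0168), and it was 0.55 with values under the lower quartile set to it (adjusted p = 0.0828). On its other, dimmer probe set Cd28 rose by 1.20 (limma over all probe sets, adjusted p = 0.00115). Thy1, a surface protein of mouse T cells that neurons, fibroblasts and innate lymphoid cells also carry, had 8.51, 7.30 and 7.93 in severe, 8.27, 7.37 and 7.42 in moderate and 7.05, 6.94, 7.16 and 6.82 in control colon. Its rise was 0.81 (standard error 0.23, adjusted p = 0.0146), from a control level well up the range. Cd27, a costimulatory receptor lost from long-stimulated T cells, averaged 3.01 ± 0.12 (SD, n = 6) in inflamed and 2.87 ± 0.17 (SD, n = 4) in control colon and did not pass (0.14, adjusted p = 0.235).

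Of the 8 transcription factors measured, 7 rose, with a median log2 difference of 1.34, the highest among the 5 roles. Gata3, the factor of type 2 helper cells that all T cells need to develop, had 6.25, 6.16 and 6.75 in severe, 5.94, 6.16 and 5.78 in moderate and 3.03, 3.81, 4.38 and 3.72 in control colon. Its controls were the most spread of the 33 genes, with replicate 1 lowest and replicate 3 highest, yet every inflamed colon lay over 1 log2 unit above them. The rise was 2.44 or 5.43-fold (standard error 0.24, adjusted p = 1.58e-05). Tbx21 (T-bet), the factor of type 1 helper cells, had 5.82, 5.67 and 6.02 in severe, 6.34, 5.28 and 5.66 in moderate and 4.42, 4.36, 4.37 and 3.85 in control colon. Moderate replicate 1 was highest, control replicate 4 lay below the other controls, and the rise was 1.55 or 2.92-fold (standard error 0.18, adjusted p = 5.28e-05). Stat4, which relays interleukin-12 signals, averaged 4.87 ± 0.46 (SD, n = 6) in inflamed and 3.74 ± 0.08 (SD, n = 4) in control colon, and rose by 1.13 (adjusted p = 0.000913). Batf, an AP-1 factor needed for type 17 helper cells, averaged 6.80 ± 0.32 (SD, n = 6) in inflamed and 5.71 ± 0.09 (SD, n = 4) in control colon and rose by 1.09 (adjusted p = 0.000147).

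Ikzf1 (Ikaros), a factor of all lymphoid cells, had 7.72, 6.65 and 7.22 in severe, 7.55, 6.59 and 6.61 in moderate and 5.04, 4.63, 5.06 and 4.79 in control colon. It rose by 2.18 or 4.52-fold without overlap (standard error 0.23, adjusted p = 2.74e-05). Ikzf3 (Aiolos), its relative, averaged 5.59 ± 0.53 (SD, n = 6) in inflamed and 3.90 ± 0.30 (SD, n = 4) in control colon and rose by 1.68 or 3.21-fold (adjusted p = 0.000262). Bcl11b, which holds cells to the T lineage, had 8.68, 8.62 and 8.64 in severe, 9.25, 8.94 and 8.65 in moderate and 8.33, 8.58, 8.35 and 8.21 in control colon. Severe replicate 2 was only 0.04 above control replicate 2, and the difference was 0.43 (standard error 0.13, adjusted p = 0.0198). That call ended without control replicate 1 (adjusted p = 0.0517) or control replicate 4 (0.0639), and with all 4 of its probe sets averaged (0.26, adjusted p = 0.114). Lef1, a Wnt effector of naïve T cells, averaged 5.20 ± 0.23 (SD, n = 6) in inflamed and 4.94 ± 0.17 (SD, n = 4) in control colon and did not pass (0.26, adjusted p = 0.118).

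Among activation molecules and receptors, 4 of 5 genes rose, with a median log2 difference of 0.52. Il18r1, the interleukin-18 receptor chain found on type 1 helper and natural killer cells, had 7.69, 6.76 and 6.99 in severe, 7.88, 6.45 and 6.49 in moderate and 4.07, 4.32, 4.24 and 4.19 in control colon. Moderate replicate 1 and severe replicate 1 were the highest, and the rise was 2.84 or 7.17-fold (standard error 0.27, adjusted p = 1.35e-05). Cd69, an early activation antigen that also marks tissue-resident T cells, had 6.36, 4.89 and 6.05 in severe, 5.64, 5.05 and 5.20 in moderate and 2.76, 2.97, 2.82 and 2.86 in control colon. All inflamed colons lay well above the controls, which were under the lower quartile, and the difference was 2.68 (standard error 0.26, adjusted p = 1.48e-05), or 1.70 with values under the lower quartile set to it (adjusted p = 0.00079). Il17a, the cytokine that defines type 17 helper cells, had 5.15, 4.85 and 5.29 in severe, 4.53, 4.82 and 4.57 in moderate and 4.24, 4.37, 4.37 and 4.42 in control colon. The inflamed colons lay above every control, moderate replicate 1 by 0.11, and the rise was 0.52 or 1.43-fold (standard error 0.14, adjusted p = 0.0123). Tnfrsf9 (4-1BB), a costimulatory receptor induced by activation, averaged 5.95 ± 0.10 (SD, n = 6) in inflamed and 5.46 ± 0.09 (SD, n = 4) in control colon and rose by 0.49 (adjusted p = 0.000218). Cd40lg, the CD40 ligand of helper T cells, averaged 5.19 ± 0.13 (SD, n = 6) in inflamed and 5.08 ± 0.12 (SD, n = 4) in control colon and did not pass (0.11, adjusted p = 0.344).

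The labels' grade of inflammation gave 2 further comparisons with control, which share the 4 control colons. In severe colon 26 of 33 genes rose and 0 fell, against 16.1% and 18.9% of all genes. In moderate colon 24 rose and 0 fell, against 13.2% and 16.7% of all genes. The median log2 difference was 0.92 in severe and 0.79 in moderate colon, against 0.02 and 0.03 over all genes. The severe count was 22 without severe replicate 1 and 22 under the methods' t-test, which called 29.6% of all genes in either direction. The moderate count was 18 without moderate replicate 1 and 19 under the methods' t-test, which called 21.1% of all genes. With a replicate left out, shares of all genes were not taken. For Cd28 the difference was 0.98 in severe (adjusted p = 0.00886) and 0.54 in moderate colon (adjusted p = 0.122). The severe call ended under the methods' t-test alone of 23 alternatives (adjusted p = 0.057). The moderate value passed under 5 of 23 alternatives, among them the most variable probe set (1.07, adjusted p = 0.0106) and the mean over probe sets (0.80, adjusted p = 0.0329). The values for Thy1 were 0.92 in severe (adjusted p = 0.0234; 0.0907 without severe replicate 1) and 0.69 in moderate colon (adjusted p = 0.0825). Its severe call ended under 5 of 23 alternatives, and the moderate value passed under 6 of 23, for example with only these groups compared (adjusted p = 0.0336). For Il17a they were 0.75 in severe (adjusted p = 0.000593) and 0.29 in moderate colon (adjusted p = 0.0878). Bcl11b went the other way, at 0.28 in severe (adjusted p = 0.137) and 0.58 in moderate colon (adjusted p = 0.00822).

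Set against each other directly, severe and moderate colon gave no call for any of the 33 genes, nor for any of the 18193, after adjustment (limma, 0.0% higher and 0.0% lower). At an unadjusted p under 0.05, 3 of the 33 were higher in severe colon and 0 lower, against 2.18% and 2.89% of all genes, and the methods' t-test called 1 of the 33 unadjusted, against 3.53% of all genes, and 0 adjusted. The 3 genes, named after their values were seen, were Il17a, Stat4 and Batf. Il17a averaged 5.10 ± 0.23 in severe and 4.64 ± 0.16 in moderate colon (SD, n = 3 each). Every severe value lay above every moderate one, by 0.46 on average (95% confidence interval 0.19 to 0.73, limma adjusted p = 0.80). The difference was 0.50 for Stat4 (0.01 to 0.98) and 0.37 for Batf (0.01 to 0.73), each with an adjusted p of 0.98. For the CD3 chains the intervals were wide: Cd3g differed by 0.16 (-0.64 to 0.96) and Cd3d by 0.23 (-0.58 to 1.04), so that a doubling in Cd3d in severe colon lay within its interval.

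The 6 inflamed colons did not rank by grade. Severe replicate 1 was among the highest 2 of the 6 for 24 of the 33 genes, and moderate replicate 1 for 25. Both together held the top places for 17 of the 33 genes (51.5%), against 9.37% of all genes. Among the 27 that rose the count was 15, against 19.0% of all genes that rose. At the other end, moderate replicate 3 was among the lowest 2 for 23 of the 33 genes, and severe replicate 2 and moderate replicate 2 for 15 each. For a colon taken singly, ranks were not counted over all genes. Its counts thus describe the 33 genes and cannot be called particular to them. The mean of the 33 genes lay 1.54, 0.97 and 1.31 log2 units above the control mean in severe replicates 1 to 3, and 1.48, 0.97 and 0.91 above it in moderate replicates 1 to 3. The 4 controls lay between -0.03 and 0.02. Without severe replicate 1 and moderate replicate 1, left out after seeing these ranks, 27 of 33 genes rose in inflamed colon. The share of all genes that rose was not taken for that setting. The differences of Skap1, Cd28 and Thy1 were then 0.47, 0.49 and 0.51, against 0.71, 0.76 and 0.81 with all colons.

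Other leukocyte markers moved with the same comparison. The counts of each marker list stand against 18.5% of all genes that rose and 21.2% that fell. Of 10 macrophage and monocyte markers, 8 rose and 0 fell, with Lyz2 (lysozyme) higher by 2.51 and Itgam by 1.83. Their mean ran from 7.98 to 9.43 in severe, 7.86 to 8.47 in moderate and 7.11 to 7.34 in control colon, highest in severe replicate 1 and next in moderate replicate 1. Of 8 neutrophil markers, 7 rose and 0 fell, with S100a8 higher by 7.66 and S100a9 by 6.34, from spread controls. Their mean was 8.71, 7.40 and 7.59 in severe replicates 1 to 3, 6.45, 7.40 and 6.59 in moderate replicates 1 to 3, and 4.48 to 5.13 in control colon. Moderate replicate 1, high for the T cell genes, was thus the lowest inflamed colon for neutrophil markers. Of 8 natural killer and innate lymphoid markers, 6 rose and 1 fell. Tyrobp, an adaptor that myeloid cells also use, was higher by 2.53, Klrk1 (NKG2D) by 0.95, and Kit fell by 1.63. Their mean ran from 5.58 to 5.88 in severe, 5.55 to 6.12 in moderate and 5.22 to 5.32 in control colon. None of these markers was at 0, as no probe set on any array had a log2 value under 1.96, and their part in the T cell results was not tested.

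**Figure D4:**
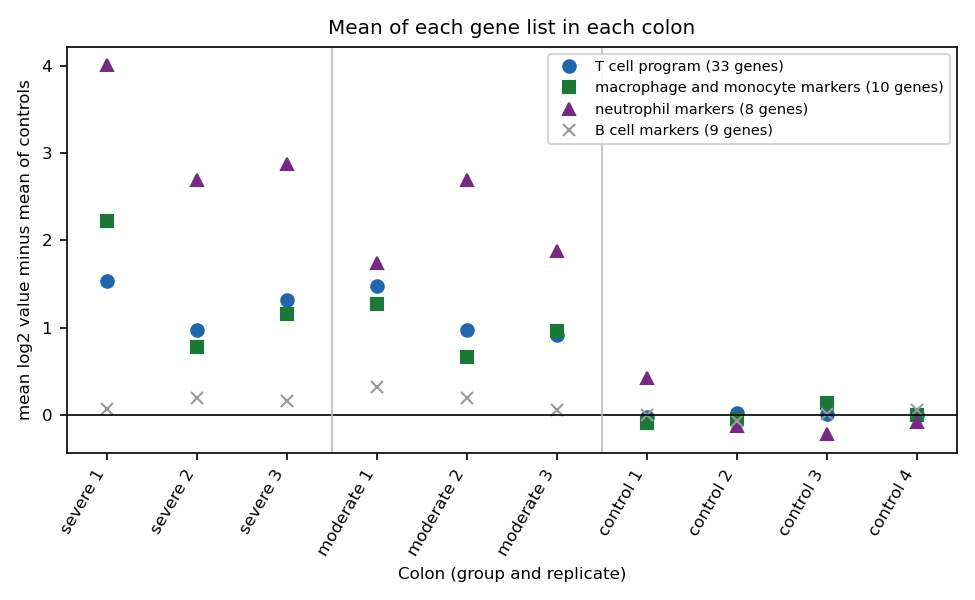
Mean log2 value of 4 gene lists in each colon, minus their mean over the 4 controls: the 33 T cell genes, 10 macrophage and monocyte markers, 8 neutrophil markers and 9 B cell markers. The T cell mean is highest in severe replicate 1 and moderate replicate 1, at 1.54 and 1.48, while moderate replicate 1 has the lowest neutrophil mean of the inflamed colons.

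Of 9 B cell markers, 2 rose and 0 fell, a share near the 18.5% of all genes that rose: Cd22, an inhibitory receptor of B cells, by 0.58 (adjusted p = 0.0106), and Ms4a1 (CD20) by 0.29 (adjusted p = 0.0483), a call that ended under 16 of 23 alternatives. Their mean ran from 4.42 to 4.55 in severe, 4.41 to 4.67 in moderate and 4.29 to 4.42 in control colon. Of 9 dendritic cell markers, 3 rose and 0 fell. These were Itgax (CD11c) by 2.58, Ccr9, a gut homing receptor that T cells share, by 1.05, and Batf3 by 0.86, the last named after its value was seen. Their mean ran from 5.68 to 5.86 in severe, 5.59 to 6.00 in moderate and 5.07 to 5.27 in control colon. Of 8 mast cell and eosinophil markers only Cpa3, a mast cell protease, rose, a smaller share than over all genes, by 0.64 (adjusted p = 0.0373), and its call ended under 9 of 23 alternatives. Of 10 epithelial markers, 4 rose and 0 fell: Tjp3 by 0.45, Elf3 by 0.38 and also Cldn7 by 0.27 and Krt19 by 0.20, both named with their values known.

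The genes beyond the 33 that belong to the same pathways moved in part with them. Their counts, too, stand against 18.5% of all genes that rose and 21.2% that fell. Of 28 further genes of receptor signaling, 17 rose, 3 fell and 8 did not pass, with a median log2 difference of 0.38. Ptprc (CD45), the phosphatase of all leukocytes that primes Lck, averaged 10.45 ± 0.47 (SD, n = 6) in inflamed and 7.43 ± 0.27 (SD, n = 4) in control colon and rose by 3.02 (adjusted p = 4.02e-06). Ptpn22, a phosphatase that restrains Lck and Zap70, rose by 2.77. The 3 that fell were the adaptor Nck1, by 0.85 (adjusted p = 5.07e-05), the ubiquitin ligase Cblb, by 0.26, a call that ended under 10 of 23 alternatives, and, named after its value was seen, Nfatc3, by 0.22. All 3 are widely expressed outside T cells.

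Of 18 further T cell transcription factors, 8 rose, 2 fell and 8 did not pass, with a median of 0.17. Prdm1 (Blimp-1), a factor of effector lymphocytes that the gut epithelium also uses, averaged 8.23 ± 0.16 (SD, n = 6) in inflamed and 5.18 ± 0.46 (SD, n = 4) in control colon and rose by 3.05 (adjusted p = 1.11e-06). Ets1 rose by 1.26. Tox, which guides thymocyte development and T cell exhaustion, fell by 0.87 (adjusted p = 0.000153). It averaged 6.25 ± 0.18 (SD, n = 6) in inflamed and 7.12 ± 0.23 (SD, n = 4) in control colon. Which cells its transcripts came from was not tested. Gfi1, a repressor that secretory epithelial cells share, fell by 0.70. Foxp3, the factor of Tregs, named after its value was seen, averaged 3.53 ± 0.06 (SD, n = 6) in inflamed and 3.40 ± 0.12 (SD, n = 4) in control colon, under the lower quartile in both, and did not pass (0.13, adjusted p = 0.169).

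Of 10 helper T cell cytokines, 4 rose and 0 fell. Ifng, the type 1 cytokine interferon gamma, had log2 values of 8.27, 7.15 and 7.70 in severe, 7.54, 6.84 and 7.37 in moderate and 3.56, 3.79, 3.79 and 3.84 in control colon. It rose by 3.73 (standard error 0.22, adjusted p = 1.27e-06), from controls under the lower quartile. Tnf rose by 1.84, Csf2 (GM-CSF) by 0.82 and Il2, the T cell growth factor, by 0.44 (adjusted p = 0.00800). Il2 read 3.20 to 3.81 in inflamed and 3.11 to 3.25 in control colon, under the lower quartile on every array. Its groups overlapped, with severe replicate 2 at 3.20 below control replicate 4 at 3.25. The type 2 cytokines Il4, Il5 and Il13 did not pass, at 0.07, 0.00 and 0.16, nor did Il9 (0.13), Il10 (0.01) or Il21 (0.09). The inflamed means of these 6 lay between 3.24 for Il10 and 4.64 for Il9, so low values limit what could be seen.

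Of 11 cytokine receptor chains of helper subsets, 7 rose and 0 fell, with Il4ra higher by 2.02 and Il2rb, shared by the interleukin-2 and interleukin-15 receptors, by 1.70. Of 15 further costimulatory and inhibitory receptors, 14 rose and 0 fell, with a median of 0.86, close to the 0.89 of the 6 surface receptors above. Ctla4, the inhibitory counterpart of Cd28, averaged 6.06 ± 0.52 (SD, n = 6) in inflamed and 4.44 ± 0.21 (SD, n = 4) in control colon and rose by 1.62 (adjusted p = 0.000230), and Icos, a costimulator of activated T cells, rose by 1.49. Of 10 genes of T cell trafficking and memory, 8 rose and 1 fell, with a median of 1.11. Cxcr6, a chemokine receptor of tissue T cells, rose by 3.03 (adjusted p = 1.48e-05) and Il7r, the interleukin-7 receptor chain, by 2.68. Klf2, a factor of circulating T cells that endothelium also uses, fell by 0.60 (adjusted p = 0.0294), a call that ended under 7 of 23 alternatives.

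The receptor chains themselves were described last, on probe sets picked after their annotation was seen. Of 8 listed constant regions only Tcra had a probe set of its own, and it read near the bottom of the range, with a difference of 0.18 (adjusted p = 0.103). The probe sets annotated to variable segments, together with the one of Tcra, were 17, of which 8 rose and 0 fell, against 16.5% of 34945 probe sets that rose. For Trbv1, of the beta chain, the brighter probe set averaged 7.63 ± 0.41 (SD, n = 6) in inflamed and 4.36 ± 0.21 (SD, n = 4) in control colon. It rose by 3.27 (limma over all probe sets, adjusted p = 7.04e-07), while its other probe set differed by 0.07. For Trav9d-3, of the alpha chain, 3 probe sets rose by 2.45, 2.18 and 1.83 and another 2 did not pass. Gamma chain probe sets rose as well: 2 of the 3 of Trgv4 by 1.34 and 0.79, and the one of Trgv1 by 0.70. The third Trgv4 probe set differed by 0.07 (adjusted p = 0.458). Trav12n-2 rose by 0.38. Cd8b1, the beta chain of CD8, which is not among the 17, rose by 0.40 (adjusted p = 0.00242) from a dim level. Segments of 1 family are alike in sequence, so probe sets may read several of them.

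Whether a gene passed depended in places on the probe set. The 33 genes have 57 probe sets, of which 36 rose and 0 fell, and 13 genes have more than 1. Of all 34945 probe sets 16.5% rose, and the share that fell was not taken. Zap70 averaged 8.10 ± 0.11 (SD, n = 6) in inflamed and 8.05 ± 0.07 (SD, n = 4) in control colon on the probe set used. On another it averaged 5.07 ± 0.35 (SD, n = 6) in inflamed and 3.95 ± 0.13 (SD, n = 4) in control colon. Zap70 rose by 1.13 there (limma over all probe sets, adjusted p = 0.000175) and by 0.70 on the other one (adjusted p = 0.000694). Cd8a has 5 probe sets, and 1 of them rose, by 0.77 (adjusted p = 0.000884), while the 4 others differed by 0.04 to 0.40. In the other direction, Ikzf1 rose by 2.18 on the probe set used and differed by 0.05 on the other (adjusted p = 0.717). Ikzf3 differed by 0.11 and 0.13 on 2 others, Cd4 by 0.11 on 1 other and Tnfrsf9 by 0.00 on 1 of 2 others. Cd247 differed by 0.18 and 0.17 on 2 of its 3 others, neither of which passed (adjusted p = 0.106 and 0.0925), and Bcl11b by 0.10 to 0.34 on 3 others, none of which passed. Lcp2 and Skap1 rose on every probe set, but by 0.64 on the other one of Lcp2 and by 0.28 and 0.32 on the others of Skap1. Averaging the probe sets lowered the differences of Ikzf1 to 1.11, of Ikzf3 to 0.64, of Skap1 to 0.435 and of Cd4 to 0.23, and each still passed. With any probe set counted, 29 of the 33 genes rose, Zap70 and Cd8a being the 2 added, against 22.6% of all genes under the same count.

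**Figure D5:**
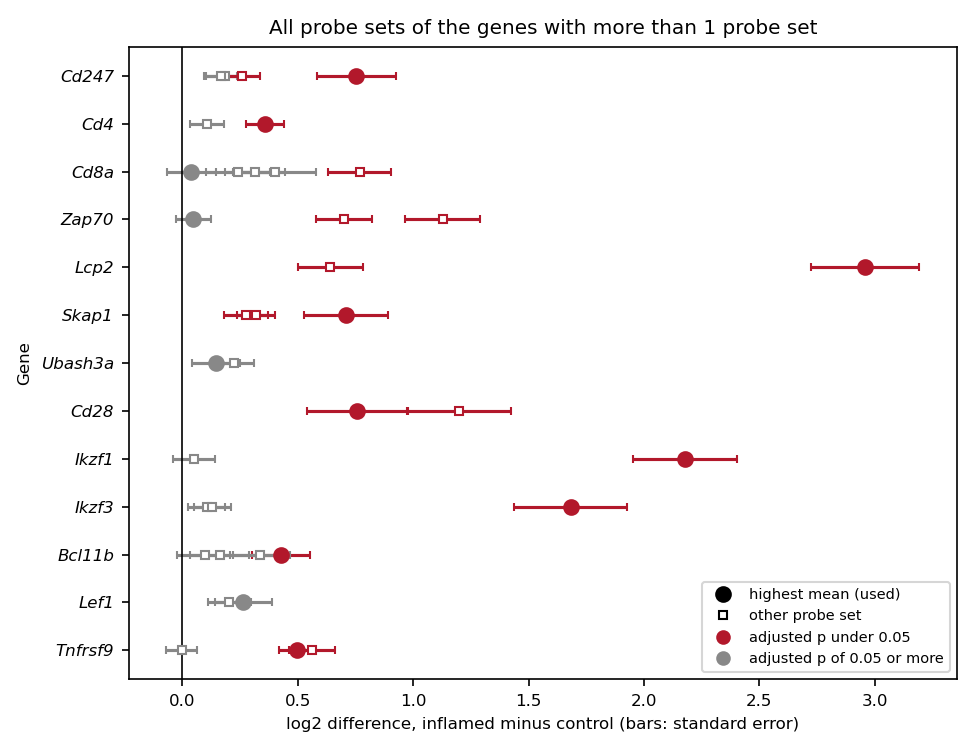
Log2 difference between inflamed and control colon for every probe set of the 13 genes with more than 1, with bars for the standard error; filled circles mark the probe set used and open squares the others, red where the adjusted p over all probe sets is under 0.05. Zap70 and Cd8a are grey at the probe set used and have red squares to its right, while Ikzf1 and Ikzf3 are red at the probe set used and grey at the others.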

How the data were processed

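Affymetrix whole-genome arrays, 1 per mouse, measured RNA of the distal colon, with 3 severe, 3 moderate and 4 control biological replicates. The authors made the deposited log2 values with Expression Console and RMA, as the processing notes list. RMA corrects background, gives all arrays 1 distribution and summarizes each probe set; no version was stated. The RNA was extracted with Trizol per the labels and with a Qiagen kit per the paper's methods. Scan dates, detection calls and signal over background were not used here. Array batches were thus not examined, and the precision is limited by the number of arrays.

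Probe sets with 1 annotated gene (34945 of 45101) were kept, 1 for each of 18193 genes. Tests used limma 3.58.1 under R 4.3.3 on log2 values (lmFit, eBayes, two-sided tests), and p-values were adjusted by Benjamini-Hochberg across all genes, with a threshold of 0.05. Inflamed against control was fitted with 2 groups and the other comparisons with 3 groups. "Rose" and "fell" are used only of genes past the threshold. The tests were checked on simulated data with independent normal noise. At a log2 change of 0.5 they recovered 65.7% of changed genes for inflamed against control. The share was 41.8% for severe against control, 38.8% for moderate against control and 49.3% for severe against moderate. At a change of 1 it was 86.6% to 92.5% over the 4 comparisons. Small differences by grade could thus be missed. The changed genes were drawn at random from all genes, so these shares need not hold for the T cell genes. For severe against moderate the standard error was 0.37 for Cd3d and 0.36 for Cd3g, so larger differences could be missed there as well. The 35 genes and the 14 further lists were chosen with earlier results of these data known. All 35 genes may be named, and of each list the 2 largest rises and falls, with every gene of the cytokine list; others are said to be named after their values were seen. Alternatives covered the value per gene, dim values, scaling, variance model, array weights, test, design, a replicate block and each array left out. Word searches and figures used Python 3.11.15 and matplotlib 3.10.9.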

Additional observations from a re-analysis of the deposited data

Results flagged for a closer look

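In 2 of 66 sets of 4 or 6 colons examined for the 33 genes, 1 colon lay far from the others of its group relative to the group's range (Dixon's criterion); chance gives about 1 in 20. For Txk, the Tec family kinase, control replicate 2 was the lowest control at 3.59, with the nearest control at 3.77 and the highest at 3.80, all under the arrays' lower quartile. For Tbx21, the type 1 helper factor, control replicate 4 was the lowest control at 3.85, with the nearest control at 4.36 and the highest at 4.42.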

How the results depend on the processing

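The count of T cell genes that rose in inflamed colon was 27, and 25 to 29 over 23 alternatives, with 26 to 28 when 1 array was left out. In severe colon it was 26, with 22 to 28 over the alternatives, and in moderate colon 24, with 18 to 27. No gene fell in any of them, and severe against moderate gave 0 calls throughout (22 alternatives). Of the 27 genes that rose, 24 kept their call in every alternative. Sh2d1a and Cd28 lost it with dim values set to the lower quartile, and Bcl11b lost it under the mean over probe sets, without control replicate 1 or 4, and with the replicate block (0.38, adjusted p = 0.0733). Zap70 and Cd8a passed under the mean over probe sets (0.63 and 0.35) and under the most variable probe set (1.13 and 0.77), and Lef1 under the mean over probe sets (0.23), with arrays centred on the median (0.32) and without moderate replicate 3. Averaging over probe sets lowered the rises of Lcp2, Cd247, Cd4, Skap1, Ikzf1, Ikzf3 and Bcl11b by over 1.5 times. Of the calls examined by grade, Cd28 and Thy1 in severe colon lost theirs under 1 and 5 of 23 alternatives, Bcl11b in moderate colon under 1 (the methods' t-test, adjusted p = 0.0746), and Cd28, Thy1 and Il17a in moderate colon gained one under 5, 6 and 1. The difference of Cd8a changed sign without control replicate 3 (-0.0403) and without moderate replicate 2 (-0.0018), and was 0.1121 at most with arrays left out (without severe replicate 1 and moderate replicate 1). Same-numbered deviations correlated at -0.08 to 0.06 between inflamed and control colons. Between severe and moderate colons they correlated at 0.29, 0.25 and -0.03, against -0.31 to 0.06 for unlike numbers. These values do not settle whether the numbers pair severe with moderate mice. With the replicate block 26, 26, 23 and 0 genes rose in the 4 comparisons. Without severe replicate 1 and moderate replicate 1, an alternative chosen after seeing the data, 27, 24 and 22 genes rose. Of these settings, shares over all genes were taken only for the main one and the methods' t-test. The cause of these changes was not tested. Genes with controls under the lower quartile have rises of uncertain size.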
